A study of Mus musculus with 14 samples.

Results

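Potassium channel genes were taken as every row of the count table whose symbol begins with Kcn, the stem that mouse nomenclature gives to pore-forming and auxiliary subunits of potassium channels. This rule found 94 genes among 22430. By subunit name, 40 encode voltage-gated alpha subunits, 8 calcium-, sodium- or pH-activated channels, 15 inward rectifiers, 14 two-pore-domain channels and 17 auxiliary subunits. RNA came from the intima of the thoracic aorta, the wall layer next to the blood, which is lined by endothelium and was lysed by passing a reagent through the lumen. All mice lacked Apoe and are therefore prone to atherosclerosis, and each of the 14 libraries pooled 12 to 14 mice of 1 genotype. Age and sex of the mice were not stated in the labels.

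The ubiquitous progerin group (Apoe-/- LmnaG609G/G609G, 3 pools) carried on both Lmna copies the change that makes cells produce progerin, a shortened and persistently farnesylated lamin A that causes Hutchinson-Gilford progeria. Its control was the wild-type group (Apoe-/- Lmna+/+, 4 pools). In the VSMC progerin group (Apoe-/- LmnaLCS/LCS SM22Cre, 3 pools), Cre under the SM22 promoter switched on progerin in vascular smooth muscle cells (VSMC). Its control was the lamin C-only group (Apoe-/- LmnaLCS/LCS, 4 pools), and both of these groups carry an Lmna allele from which lamin C alone is made without Cre. Gene-level counts do not separate progerin from lamin A transcripts and so check none of these labels.

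Potassium channels let potassium leave the cell and hold the membrane potential negative. In endothelium, channels opened by calcium (Kcnn3 and Kcnn4) and inward rectifiers (Kcnj2) pass a hyperpolarisation to the smooth muscle beneath, which relaxes it. Smooth muscle itself relies mainly on large-conductance calcium-activated, voltage-gated and ATP-sensitive channels, while macrophages and lymphocytes use a voltage-gated channel (Kcna3) and leak channels of the two-pore-domain class.

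Library totals ran from 27169800 to 29309800 estimated counts in ubiquitous progerin, 28242600 to 31978600 in wild-type control, 27730500 to 33029100 in VSMC progerin and 31701300 to 35692400 in lamin C-only control. A floor of 3 counts corresponded to 0.0813 to 0.111 counts scaled to a common library total (CPM), a limit that covers counting error only. Of the cell type marker lists, the endothelial list had the highest sum in every group. Pecam1, Cdh5, Tek, Kdr, Vwf and Erg together reached 17990 to 19080 CPM in ubiquitous progerin and 20420 to 22310 CPM in wild-type control. They reached 18350 to 19370 CPM in VSMC progerin and 19630 to 21590 CPM in lamin C-only control. Sums of unlike lists do not measure shares of cells. The 7 smooth muscle markers summed to 936 to 982 CPM in ubiquitous progerin, 492 to 830 CPM in wild-type control, 318 to 383 CPM in VSMC progerin and 398 to 560 CPM in lamin C-only control. In ubiquitous progerin 1 of them, Tagln, rose and Acta2, Myh11 and Smtn fell, while in VSMC progerin Acta2, Myh11 and Lmod1 fell. The 7 macrophage markers summed to 597 to 1023 CPM in ubiquitous progerin, 56.0 to 122 CPM in wild-type control, 478 to 581 CPM in VSMC progerin and 50.6 to 200.3 CPM in its lamin C-only control, and all 7 rose in both progerin groups. Pool 1 of wild-type control stood apart with 14328 genes that had a count, against 15188 to 15233 in the other wild-type pools.

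Of the 94 potassium channel genes, 37 had enough counts to be tested and 57 did not. Of the 57, 14 had no count in any library (among them Kcne1, Kcnf1, Kcnk9 and Kcnmb2) and 43 had a few, at most 23 in a library and at most 78 over all 14. The 37 tested genes held 99.3% to 99.8% of the potassium channel counts of each library. Their mean level was over 10 CPM for 9 genes, 1 to 10 CPM for 10 and under 1 CPM for 18. A gene could pass the filter through 1 group in which it was high, so the tested genes do not stand for all 94.

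Per kilobase of exon, which allows genes to be compared, Kcnt2, a sodium-activated channel, ranked first in wild-type control at 18.1 ± 1.68 CPM per kilobase (SD, n = 4). Other genes at a high level there were the auxiliary subunit Kcne3 (11.7 ± 0.912), and the calcium-activated Kcnn3 (9.09 ± 1.20) and Kcnn4 (9.0 ± 1.55), all in CPM per kilobase. The levels of Kcnn3 and Kcnn4 differed by less than their SD. In ubiquitous progerin Kcnt2 alone made up 40.3% of the summed potassium channel level per kilobase, against 19.1% in wild-type control. In VSMC progerin it made up 11.4%, against 18.6% in lamin C-only control, and Kcne3 ranked first at 19.7 ± 4.39 CPM per kilobase (SD, n = 3).

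**Figure D1:**
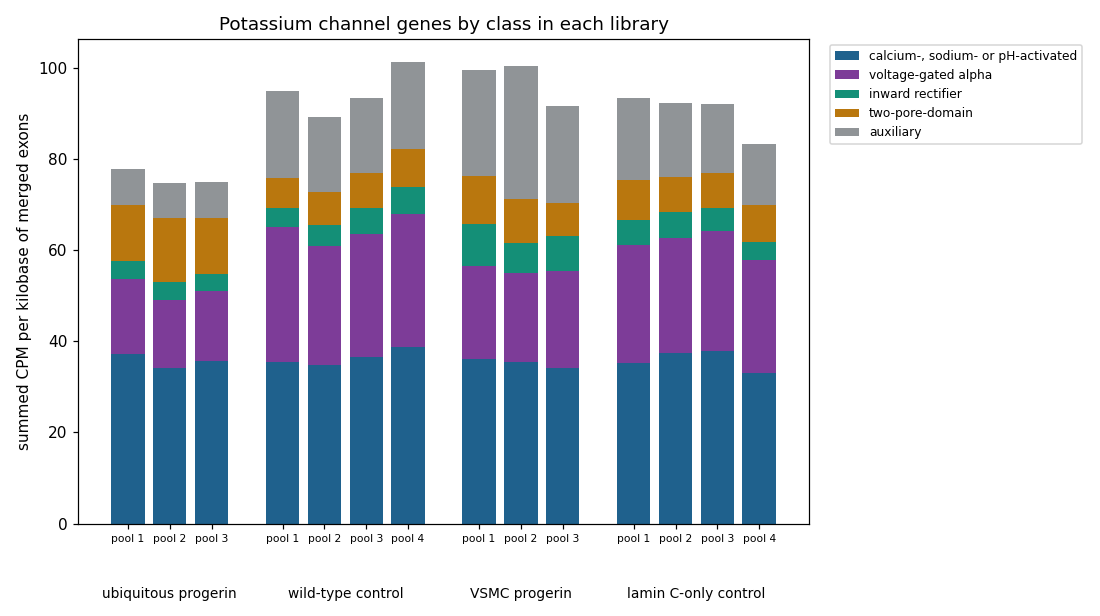
Level of potassium channel genes, summed by class as CPM per kilobase of exon (vertical axis), in each of the 14 libraries (horizontal axis, grouped by genotype). The calcium-, sodium- or pH-activated class (bottom block) has about the same height in all 4 groups, while the voltage-gated and auxiliary blocks are lowest in ubiquitous progerin among the 4 groups.

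Summed over all 94 genes, the level per kilobase was 75.8 ± 1.80 CPM per kilobase in ubiquitous progerin and 94.7 ± 4.99 CPM per kilobase in wild-type control (SD, n = 3 and 4). It was 97.1 ± 4.86 CPM per kilobase in VSMC progerin and 90.3 ± 4.69 CPM per kilobase in lamin C-only control (SD, n = 3 and 4). The libraries of ubiquitous progerin lay below those of its control, and the libraries of VSMC progerin overlapped with those of its control. The calcium-, sodium- or pH-activated class summed to 35.6 ± 1.59 CPM per kilobase in ubiquitous progerin and 36.4 ± 1.73 in wild-type control, a difference smaller than the SD, although its members moved in opposite directions. Voltage-gated alpha subunits summed to 15.6 ± 0.773 CPM per kilobase in ubiquitous progerin and 27.9 ± 1.67 in wild-type control, and auxiliary subunits to 7.80 ± 0.230 in ubiquitous progerin and 17.8 ± 1.52 in wild-type control. Two-pore-domain channels went the other way, with 12.9 ± 1.13 CPM per kilobase in ubiquitous progerin and 7.39 ± 0.701 in wild-type control. In VSMC progerin auxiliary subunits summed to 24.5 ± 4.17 CPM per kilobase, against 15.7 ± 1.96 in lamin C-only control, and inward rectifiers to 7.82 ± 1.31, against 5.08 ± 0.745. Voltage-gated alpha subunits summed to 20.3 ± 0.940 in VSMC progerin, against 25.5 ± 0.661 in lamin C-only control. The libraries of VSMC progerin and its control did not overlap for these 3 classes, and they overlapped for the other 2. A class sum follows its highest members. Of the auxiliary sum, Kcne3 alone held 19.7 CPM per kilobase in VSMC progerin and 10.6 in lamin C-only control. Of the inward rectifier sum, Kcnj2 alone held 6.51 and 4.75, and its own pools overlapped. Of the 12 voltage-gated genes tested, 3 rose and 3 fell in VSMC progerin, so the lower sum does not describe each member. In bulk RNA, fewer cells of a type and less RNA per cell cannot be told apart.

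In ubiquitous progerin, 9 potassium channel genes rose and 11 fell of 37 tested by edgeR's quasi-likelihood test at a Benjamini-Hochberg adjusted p under 0.05. Of all 14269 genes tested, 26.3% rose and 28.3% fell, 54.6% in all, so the share of 54.1% (20 of 37) was close to that of all genes. The median log2 fold change was 0.22 over the 37 and -0.005 over all genes tested. Of the 20 that changed, 7 rose and 8 fell by at least 2-fold. All 9 potassium channel genes with a mean over 10 CPM changed, 2 higher and 7 lower, where 62.6% of the 9291 genes at that level did. The pools of both groups did not overlap for 25 of the 37 genes, against 56.4% of all genes tested. Mitochondrial genes took 7.29% to 8.22% of the counts in ubiquitous progerin, against 4.60% to 5.42% in wild-type control, and of the fibroblast, adipocyte, blood and lymphocyte markers 1 blood marker rose and 1 fibroblast and 1 lymphocyte marker fell. Their part in the changes was not tested.

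In VSMC progerin, 14 potassium channel genes rose and 6 fell by the same test, where 19.0% of all genes rose and 23.0% fell, 42.0% in all. The share that changed was again 54.1% (20 of 37), and the median log2 fold change was 0.47 over the 37 genes and -0.03 over all genes tested. Of the 20 that changed, 8 rose and 2 fell by at least 2-fold. Of the 9 genes with a mean over 10 CPM, 4 rose and 4 fell, where 16% and 31.5% of all genes at that level did. Of the 18 with a mean under 1 CPM, 5 rose and none fell, where 16.4% of all genes at that level rose and 2.96% fell. The pools of both groups did not overlap for 22 of the 37 genes, against 45.5% of all genes tested. In the same pools, 4 fibroblast markers (2 rose) summed to 789 to 909 CPM in VSMC progerin, against 342 to 545 CPM in lamin C-only control, and 3 adipocyte markers (all rose) to 119 to 199.5 CPM, against 16.1 to 98.1 CPM. The 4 blood markers (3 rose) summed to 334 to 5806 CPM, against 207 to 412 CPM, the 4 striated muscle markers (both tested, Tnnt2 and Myh6, rose) to 2.81 to 10.7 CPM, against 0.335 to 0.622 CPM, and the 5 lymphocyte markers (1 of 4 tested rose) to 4.01 to 6.5 CPM, against 1.53 to 3.80 CPM. Mitochondrial genes took 11.5% to 12.1% of the counts in VSMC progerin, against 3.53% to 4.61% in lamin C-only control. The part of these differences in the changes of channel genes was not tested. Pools are separate sets of mice, so the p-values measure the spread between pools and not between animals.

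Between the controls, lamin C-only against wild-type, edgeR's quasi-likelihood test called no potassium channel gene, where 0.0911% of all genes were higher and 0.0841% lower. Kcnip3 and Kcna3 had an unadjusted p under 0.05, DESeq2 and limma also called none, and the pools did not overlap for 2 of 37 genes, among them Kcnk10, against 5.07% of all genes.

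**Figure D2:**
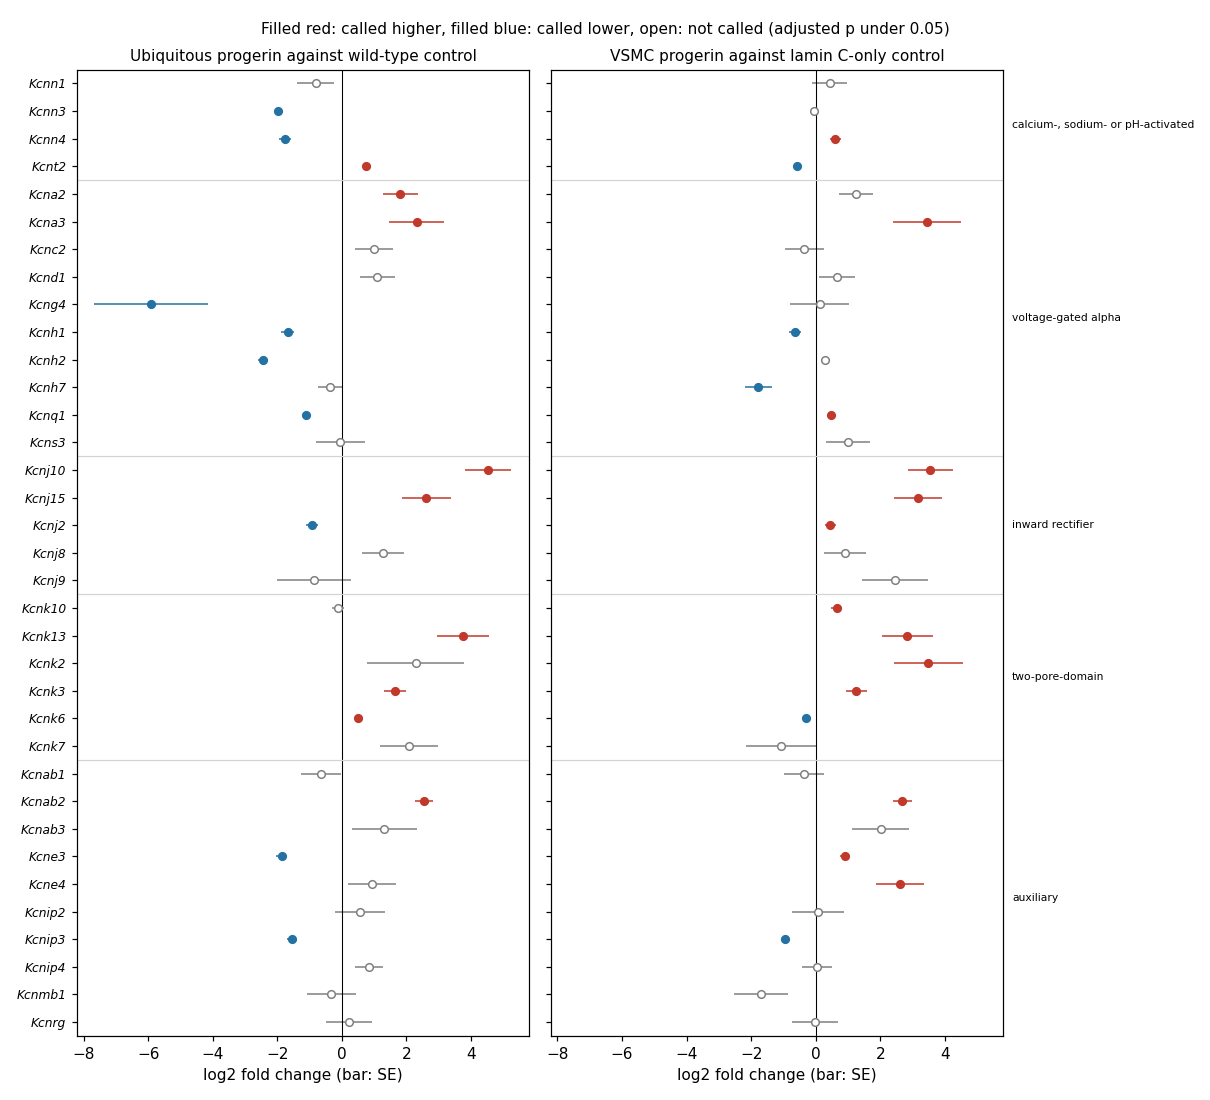
Log2 fold change (horizontal axis, bar: standard error) of 35 of the 37 tested potassium channel genes, listed by class, in ubiquitous progerin against wild-type control (left) and VSMC progerin against lamin C-only control (right). Filled symbols passed an adjusted p under 0.05. Kcnn3 and Kcnh2 are far left of 0 in the left panel (-1.97 and -2.44) and near 0 in the right (-0.05 and 0.30).

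The small- and intermediate-conductance calcium-activated channels of endothelium, Kcnn3 (chr3:89520164-89675132, GRCm38, GENCODE M21) and Kcnn4 (chr7:24370263-24386690), are shown first, because they fell together in one model and parted in the other. The 250 bases before the start that RefSeq gives for each gene (build GRCm38.p6, both on the plus strand) were chr3:89519914-89520163 for Kcnn3 and chr7:24370013-24370262 for Kcnn4. Capitals mark CCACCC on either strand, a motif of Krüppel-like factors, the zinc-finger regulators through which endothelium responds to flow.
Kcnn3: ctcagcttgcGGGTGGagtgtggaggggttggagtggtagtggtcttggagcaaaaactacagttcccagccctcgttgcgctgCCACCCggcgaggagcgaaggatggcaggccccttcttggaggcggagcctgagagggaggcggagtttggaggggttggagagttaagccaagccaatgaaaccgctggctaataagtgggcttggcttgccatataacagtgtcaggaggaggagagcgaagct
Kcnn4: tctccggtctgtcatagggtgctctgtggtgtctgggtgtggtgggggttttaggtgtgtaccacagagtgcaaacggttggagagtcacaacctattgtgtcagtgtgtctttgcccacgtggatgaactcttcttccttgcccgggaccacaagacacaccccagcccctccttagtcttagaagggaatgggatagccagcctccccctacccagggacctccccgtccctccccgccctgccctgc
The Kcnn3 window held CCACCC 2 times, once on each strand, and the Kcnn4 window had no match. Windows were found for 30 of the 37 tested potassium channel genes, of which 53.3% (16) held CCACCC, against 28.1% of 32851 RefSeq promoters of the same length. For 2 of the 30 the RefSeq start lay over 500 bases from the GENCODE start, and 53.6% (15) of the other 28 held it. TGANTCA (the AP-1 motif) was in 10% of the 30 and 6.75% of all, CCGGAAG (an ETS motif) in 3.33% of the 30 and 6.91% of all, and the CArG box of serum response factor in none of the 30 and 1.47% of all, all searched on both strands. No motif contains another of the 4, and a match is a description and not a binding site. The RefSeq promoters were not matched to the channel genes by content of G and C bases or by expression. The shares therefore do not show that a motif is enriched in channel genes.

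Kcnn3 had 22.4, 24.9 and 25.2 CPM in the ubiquitous progerin pools, against 103, 87.4, 81.6 and 108 CPM in the wild-type pools. It had 99.2, 89.8 and 84.7 CPM in the VSMC progerin pools, against 95.2, 99.6, 101 and 80.6 CPM in the lamin C-only pools. Every ubiquitous progerin pool lay far below the other 11 libraries, whose groups overlapped. The log2 fold change was -1.97 ± 0.10 (SE), 3.93-fold lower, in ubiquitous progerin (edgeR adjusted p = 4.4e-11) and -0.05 ± 0.10 in VSMC progerin (adjusted p = 0.74), and the difference between them was -1.93 ± 0.14 (adjusted p = 4.3e-09).

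Kcnn4 had 16.3, 12.4 and 11.8 CPM in the ubiquitous progerin pools, against 39.6, 47.8, 40.2 and 56.5 CPM in the wild-type pools. In the VSMC progerin pools it had 84.9, 79.8 and 66.8 CPM, against 46.7, 61.8, 53.5 and 40.3 CPM in the lamin C-only pools. The groups of each pair did not overlap, and the gene fell in ubiquitous progerin (log2 -1.77 ± 0.18, edgeR adjusted p = 2.5e-06) and rose in VSMC progerin (log2 0.61 ± 0.16, adjusted p = 0.0084). The difference between both changes was -2.38 ± 0.24 on the log2 scale (edgeR adjusted p = 3.9e-06). Macrophages and lymphocytes also use Kcnn4, and the macrophage markers were high in both progerin groups. The 5 lymphocyte markers summed to 0.630 to 2.01 CPM in ubiquitous progerin, against 1.56 to 3.365 CPM in wild-type control. Their sums were 4.01 to 6.5 CPM in VSMC progerin, against 1.53 to 3.80 CPM in lamin C-only control. The part of leukocyte content in the changes of Kcnn4 was not tested.

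Kcnt2 (chr1:140246158-140612067) had 219, 200.4 and 212 CPM in the ubiquitous progerin pools, against 121, 117, 142 and 119 CPM in the wild-type pools. It had 67.7, 74.0 and 88.0 CPM in the VSMC progerin pools, against 116, 107, 121 and 118 CPM in the lamin C-only pools. This sodium-activated channel was thus higher in every ubiquitous progerin pool and lower in every VSMC progerin pool than in any control pool. It rose by 0.75 ± 0.08 on the log2 scale, or 1.69-fold, in ubiquitous progerin (edgeR adjusted p = 1.4e-07) and fell by 0.59 ± 0.08 in VSMC progerin (adjusted p = 8.3e-06), with a difference of 1.35 ± 0.12 (adjusted p = 1.4e-08). Its exons share 102 bases with a gene on the other strand. In this class Kcnn1, another small-conductance channel, had at most 2.06 CPM in any library and was not called in either model.

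Large-conductance calcium-activated channels, the main calcium-gated potassium channels of smooth muscle, were barely detected. The pore gene Kcnma1 had 14 counts over the 3 ubiquitous progerin libraries, 4 over the 4 wild-type libraries, 27 over the 3 VSMC progerin libraries and 6 over the 4 lamin C-only libraries, and was not tested. Its beta subunit Kcnmb1 averaged 0.644 ± 0.366 CPM in ubiquitous progerin and 0.808 ± 0.560 CPM in wild-type control. It averaged 0.189 ± 0.187 CPM in VSMC progerin and 0.630 ± 0.260 CPM in the lamin C-only group, and in this pair the pools did not overlap but the edgeR adjusted p was 0.11 (log2 -1.69 ± 0.83). Without VSMC progerin pool 2 its log2 fold change was -2.63 (adjusted p = 0.048), and limma on the deposited log2 values gave -2.40 (adjusted p = 0.031).

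**Figure D3:**
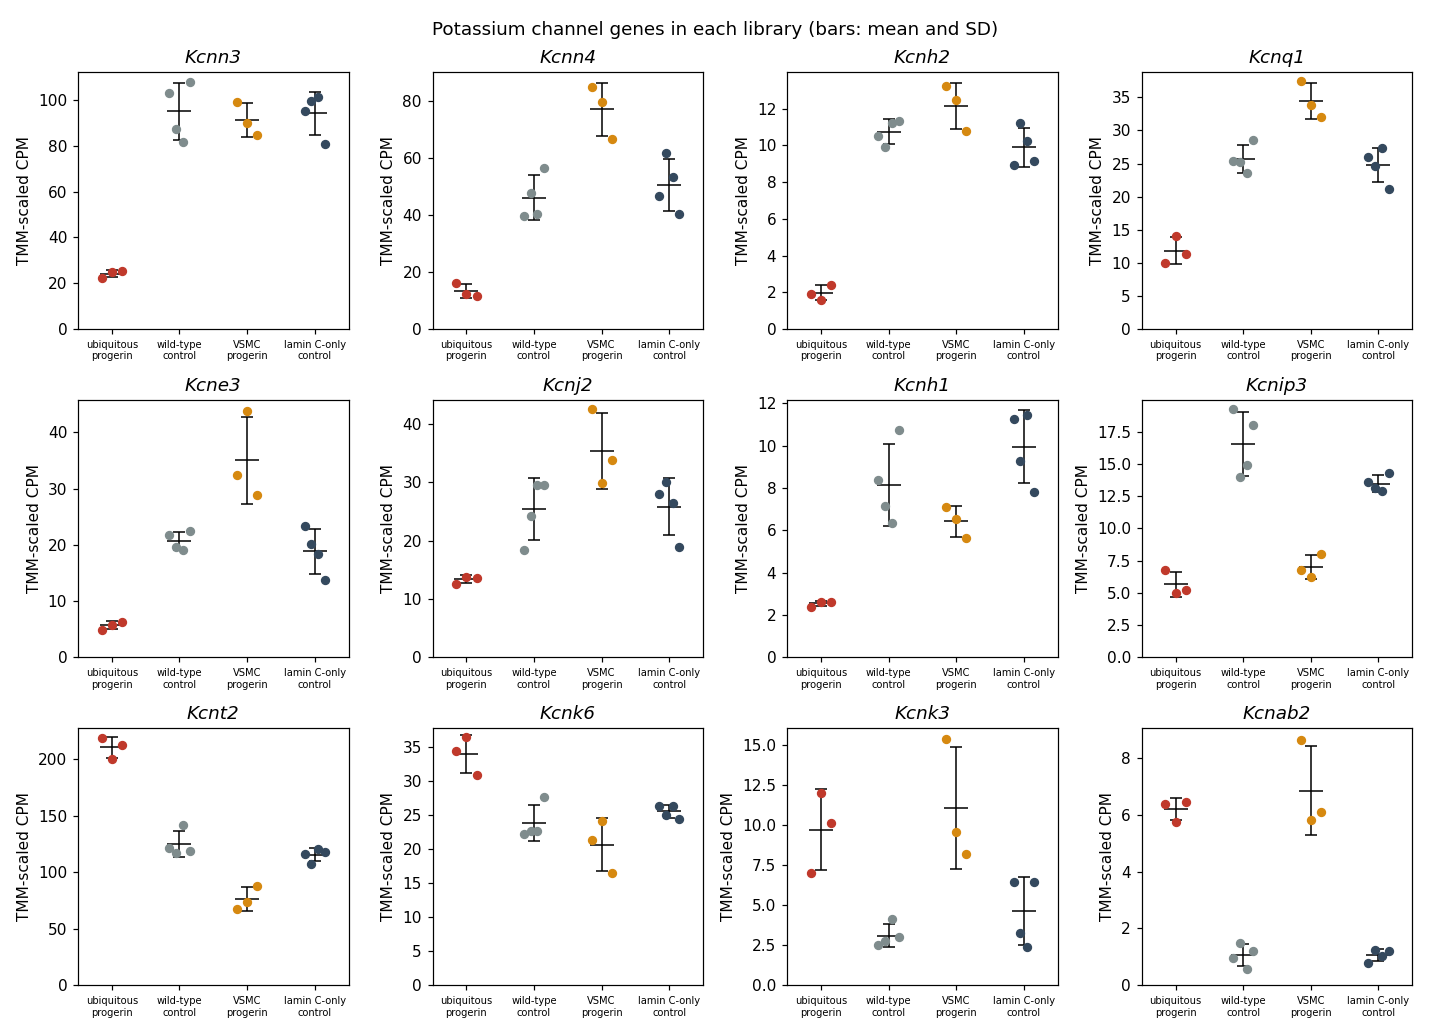
TMM-scaled CPM (vertical axis, linear, from 0) of 12 potassium channel genes in each library, by group, with the mean and SD. Kcnn3 and Kcnh2 are low in ubiquitous progerin alone, Kcnn4, Kcnq1, Kcne3 and Kcnj2 are low in ubiquitous progerin and high in VSMC progerin, and Kcnab2 is high in both.

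Among the voltage-gated alpha subunits, 2 rose and 6 fell of 12 tested in ubiquitous progerin, and 3 rose and 3 fell in VSMC progerin. Over all genes tested, 54.6% were called in ubiquitous progerin and 42.0% in VSMC progerin, and 12 genes are too few to set the class apart. Kcnh2, the ERG channel that repolarises the heart, had 1.91, 1.59 and 2.41 CPM in the ubiquitous progerin pools, against 10.5, 9.93, 11.2 and 11.3 CPM in the wild-type pools. It had 13.2, 12.5 and 10.8 CPM in the VSMC progerin pools, against 8.94, 11.2, 10.2 and 9.13 CPM in the lamin C-only pools. The ubiquitous progerin pools lay well below all others, and the other groups lay close together. Kcnh2 fell by 2.44 ± 0.17 on the log2 scale, 5.44-fold, in ubiquitous progerin (edgeR adjusted p = 2.9e-10), its log2 fold change in VSMC progerin was 0.30 ± 0.14 (adjusted p = 0.10), and the difference was -2.74 ± 0.22 (adjusted p = 5.0e-09).

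Kcnh1, the founding ether-à-go-go channel, had 2.39, 2.63 and 2.62 CPM in the ubiquitous progerin pools, against 8.36, 7.14, 6.34 and 10.8 CPM in the wild-type pools. It had 7.09, 6.53 and 5.66 CPM in the VSMC progerin pools, against 11.3, 9.29, 11.5 and 7.81 CPM in the lamin C-only pools. The pools of neither pair overlapped, and Kcnh1 fell in both models, by 1.68 ± 0.20 on the log2 scale in ubiquitous progerin (edgeR adjusted p = 7.6e-07) and by 0.63 ± 0.19 in VSMC progerin (adjusted p = 0.01). The third gene of this subfamily, Kcnh7, had 2.15, 1.33 and 1.26 CPM in the ubiquitous progerin pools, against 2.30, 1.47, 2.83 and 1.52 CPM in the wild-type pools. It had 0.661, 0.375 and 0.859 CPM in the VSMC progerin pools, against 2.07, 2.21, 2.71 and 1.69 CPM in the lamin C-only pools. Kcnh7 was not called in ubiquitous progerin (log2 -0.36 ± 0.38) and fell by 1.78 ± 0.41 in VSMC progerin (edgeR adjusted p = 0.0015), where the pools lay apart. Its exons share 696 bases with Gca on the other strand, so its counts are uncertain. Gca itself had a log2 fold change of -0.60 ± 0.25 in VSMC progerin (edgeR adjusted p = 0.06).

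Kcnq1, a slow voltage-gated channel, had 10.1, 14.1 and 11.3 CPM in the ubiquitous progerin pools, against 25.4, 25.3, 23.6 and 28.6 CPM in the wild-type pools. It had 37.5, 33.9 and 32.0 CPM in the VSMC progerin pools, against 25.9, 24.6, 27.3 and 21.2 CPM in the lamin C-only pools. Every ubiquitous progerin pool was below, and every VSMC progerin pool above, all 8 control pools. Kcnq1 fell by 1.12 ± 0.12 on the log2 scale in ubiquitous progerin (edgeR adjusted p = 1.0e-07) and rose by 0.47 ± 0.11 in VSMC progerin (adjusted p = 0.0016). It shares 121 exonic bases with Kcnq1ot1, its antisense transcript.

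Kcng4, a silent subunit that modifies other voltage-gated channels, had no count in any ubiquitous progerin library, against 4, 5, 8 and 12 counts in the wild-type libraries. Set against a floor of 3 counts over the group, it was at least 6.75-fold lower, and edgeR gave an adjusted p of 0.0086.

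The shaker-related Kcna2, a smooth muscle and nerve channel, had 1.43, 1.19 and 0.942 CPM in the ubiquitous progerin pools, against 0.248, 0.128, 0.325 and 0.635 CPM in the wild-type pools. In the VSMC progerin pools it had 1.69, 1.94 and 1.15 CPM, against 0.335, 0.777, 0.867 and 0.705 CPM in the lamin C-only pools. Neither progerin group overlapped with its control, yet only ubiquitous progerin passed the test (log2 1.81 ± 0.55, edgeR adjusted p = 0.0085), and VSMC progerin gave log2 1.24 ± 0.52 (adjusted p = 0.064). DESeq2 called it in VSMC progerin (1.28, adjusted p = 0.027), as did limma-voom (1.28, adjusted p = 0.022).

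Kcna3, the lymphocyte and macrophage channel, had 21, 22 and 14 counts in the ubiquitous progerin libraries, against 6, 1, 2 and 7 counts in the wild-type libraries. It had 12, 4 and 9 counts in the VSMC progerin libraries, against 0, 1, 0 and 2 counts in the lamin C-only libraries. The groups did not overlap in either pair, but the counts were few. Kcna3 rose by log2 2.31 ± 0.85 in ubiquitous progerin (edgeR adjusted p = 0.027) and by 3.45 ± 1.05 in VSMC progerin (adjusted p = 0.012). The first call was lost without wild-type pool 2 or 3 or ubiquitous progerin pool 1 or 2 (log2 1.99, 2.09, 2.27 and 2.15, adjusted p = 0.072, 0.067, 0.075 and 0.094), and the second without VSMC progerin pool 1 (3.02, adjusted p = 0.055). Other smooth muscle voltage-gated channels stayed near the limit of detection: Kcna5 had 8 counts over ubiquitous progerin, 13 over wild-type control, 30 over VSMC progerin and 19 over lamin C-only control, and Kcnq5 had 2 counts over each control group and none in either progerin group.

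Among the inward rectifiers, 2 rose and 1 fell of 5 tested in ubiquitous progerin, and 3 rose in VSMC progerin. The shares called over all genes were 54.6% and 42.0%, and 5 genes are too few to set the class apart. Kcnj2, the strong rectifier of endothelium, had 12.6, 13.8 and 13.7 CPM in the ubiquitous progerin pools, against 18.3, 24.2, 29.5 and 29.5 CPM in the wild-type pools. It had 42.6, 29.9 and 33.8 CPM in the VSMC progerin pools, against 28.0, 30.0, 26.5 and 18.9 CPM in the lamin C-only pools. The ubiquitous progerin pools lay below all others, and VSMC progerin overlapped with its control. Kcnj2 fell by 0.93 ± 0.18 on the log2 scale in ubiquitous progerin (edgeR adjusted p = 5.9e-04). Its rise of 0.45 ± 0.17 in VSMC progerin only just passed (adjusted p = 0.049), and it was not called without lamin C-only pool 1, 3 or 4 or VSMC progerin pool 1 or 3 (log2 0.32 to 0.49), or with the pool number as a block (0.43, adjusted p = 0.12).

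Kcnj10, the rectifier that glia use to clear potassium, had 4.23, 2.67 and 3.70 CPM in the ubiquitous progerin pools, against 0.354, 0.224, 0 and 0.0318 CPM in the wild-type pools. It had 2.09, 0.968 and 2.45 CPM in the VSMC progerin pools, against 0.251, 0.0932, 0.0542 and 0.214 CPM in the lamin C-only pools. Every progerin pool was above every control pool. The rise was log2 4.52 ± 0.71 in ubiquitous progerin (edgeR adjusted p = 1.8e-05) and 3.55 ± 0.69 in VSMC progerin (adjusted p = 3.2e-04). Of 5 neural and Schwann cell markers, Th was at 0 in all 14 libraries, and the 5 summed to 2.82 to 3.28 CPM in ubiquitous progerin, 3.62 to 5.35 CPM in wild-type control, 4.01 to 8.18 CPM in VSMC progerin and 3.96 to 5.18 CPM in lamin C-only control.

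Kcnj15, another inward rectifier, had 1.06, 1.04 and 1.01 CPM in the ubiquitous progerin pools, against 0.319, 0.128, 0.130 and 0.0952 CPM in the wild-type pools. It had 1.91, 0.843 and 2.10 CPM in the VSMC progerin pools, against 0.112, 0.404, 0.190 and 0 CPM in the lamin C-only pools. It too was higher in every progerin pool than in any control, by log2 2.61 ± 0.76 in ubiquitous progerin (edgeR adjusted p = 0.0064) and 3.17 ± 0.75 in VSMC progerin (adjusted p = 0.0019). The ATP-sensitive pore genes of muscle and islet were low: Kcnj8 averaged 1.15 ± 0.582 CPM in ubiquitous progerin, 0.472 ± 0.194 CPM in wild-type control, 0.896 ± 0.0748 CPM in VSMC progerin and 0.478 ± 0.442 CPM in the lamin C-only group, and was not called in either model. Without lamin C-only pool 4 the VSMC progerin change of Kcnj8 passed (log2 1.78, edgeR adjusted p = 0.038, against 0.91 with it). Kcnj11 had no count in either progerin group, against 11 counts over wild-type control and 2 over lamin C-only control.

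Among the two-pore-domain leak channels, 3 rose of 6 tested in ubiquitous progerin, and 4 rose and 1 fell in VSMC progerin. The shares called over all genes were 54.6% and 42.0%, and 6 genes are too few to set the class apart. Kcnk6, the member at the highest level and a potassium exit route in macrophages, had 34.4, 36.6 and 31.0 CPM in the ubiquitous progerin pools, against 22.2, 22.8, 22.7 and 27.7 CPM in the wild-type pools. It had 21.3, 24.2 and 16.5 CPM in the VSMC progerin pools, against 26.4, 25.1, 26.4 and 24.5 CPM in the lamin C-only pools. It was above all controls in ubiquitous progerin and below its own control in VSMC progerin. Kcnk6 rose by 0.51 ± 0.11 on the log2 scale in ubiquitous progerin (edgeR adjusted p = 6.0e-04) and fell by 0.31 ± 0.11 in VSMC progerin (adjusted p = 0.034). The fall was not called by DESeq2 (-0.28, adjusted p = 0.059), nor by edgeR without lamin C-only pool 1 or 3 or VSMC progerin pool 1 or 3 (-0.29, -0.29, -0.31 and -0.17).

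Kcnk3, an acid-sensitive leak channel of pulmonary artery smooth muscle, had 7.02, 12.0 and 10.1 CPM in the ubiquitous progerin pools, against 2.51, 2.75, 4.13 and 3.05 CPM in the wild-type pools. It had 15.4, 9.59 and 8.20 CPM in the VSMC progerin pools, against 6.48, 3.26, 2.41 and 6.43 CPM in the lamin C-only pools. Both progerin groups lay above their controls, with rises of log2 1.64 ± 0.34 in ubiquitous progerin (edgeR adjusted p = 6.9e-04) and 1.25 ± 0.33 in VSMC progerin (adjusted p = 0.0063). Kcnk13, a leak channel of microglia and other macrophages, had 68, 68 and 53 counts in the ubiquitous progerin libraries, against 0, 9, 4 and 7 counts in the wild-type libraries. It had 16, 58 and 33 counts in the VSMC progerin libraries, against 0, 5, 14 and 3 counts in the lamin C-only libraries. Kcnk13 rose by log2 3.75 ± 0.81 in ubiquitous progerin (edgeR adjusted p = 5.8e-04) and by 2.84 ± 0.80 in VSMC progerin (adjusted p = 0.0073).

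The stretch-activated Kcnk2 and its relative Kcnk10 rose in VSMC progerin and were not called in ubiquitous progerin. Kcnk2 had 33, 22 and 20 counts in the VSMC progerin libraries, against 8, 0, 0 and 2 counts in the lamin C-only libraries, and 3, 5 and 0 counts in ubiquitous progerin, against 0, 0, 0 and 2 in wild-type control. Its log2 fold change was 3.48 ± 1.07 in VSMC progerin (edgeR adjusted p = 0.013) and 3.15 without VSMC progerin pool 1 (adjusted p = 0.056). Only the VSMC progerin libraries held at least 10 counts of Kcnk2, so it entered the test through the group in which it was high. The difference between the models was not called for Kcnk2. Kcnk10 averaged 4.59 ± 0.609 CPM in ubiquitous progerin, 4.96 ± 0.439 CPM in wild-type control, 6.52 ± 0.903 CPM in VSMC progerin and 4.15 ± 0.218 CPM in the lamin C-only group. It rose by log2 0.65 ± 0.18 in VSMC progerin (edgeR adjusted p = 0.0058), with a difference between models of -0.76 ± 0.25 (adjusted p = 0.02).

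**Figure D4:**
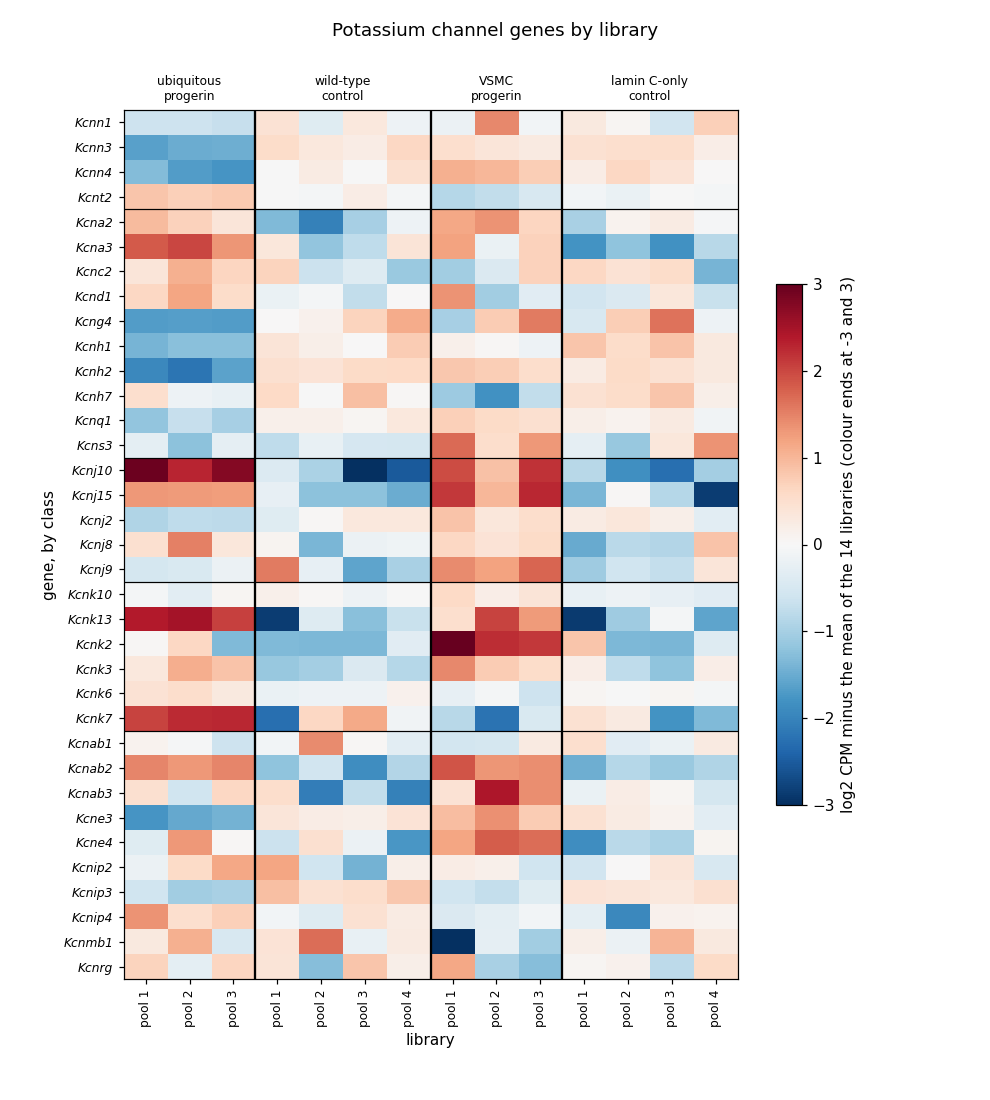
Log2 CPM of 35 of the 37 tested potassium channel genes (rows, by class) in each library (columns), minus the gene's mean over the 14 libraries; red is above and blue below that mean. Kcnj10, Kcnk13, Kcna3, Kcnj15 and Kcnab2 are red in the progerin groups, with 1 near-white cell for Kcna3 in VSMC progerin pool 2.

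Of the auxiliary subunits, 1 rose and 2 fell of 10 tested in ubiquitous progerin, and 3 rose and 1 fell in VSMC progerin. The shares called over all genes were 54.6% and 42.0%, and 10 genes are too few to set the class apart. Kcne3, a small membrane subunit that holds Kcnq1 open in epithelia, had 4.94, 5.82 and 6.35 CPM in the ubiquitous progerin pools, against 21.8, 19.7, 19.1 and 22.5 CPM in the wild-type pools. It had 32.4, 43.8 and 28.9 CPM in the VSMC progerin pools, against 23.3, 20.1, 18.4 and 13.7 CPM in the lamin C-only pools. Like Kcnq1, it was below all controls in ubiquitous progerin and above all controls in VSMC progerin. It fell by 1.86 ± 0.18 on the log2 scale in ubiquitous progerin (edgeR adjusted p = 9.6e-08) and rose by 0.89 ± 0.16 in VSMC progerin (adjusted p = 1.7e-04), a difference of -2.76 ± 0.24 (adjusted p = 5.0e-08). Kcne4, a related subunit that inhibits voltage-gated channels, averaged 1.24 ± 0.287 CPM in VSMC progerin and 0.201 ± 0.143 CPM in the lamin C-only group, and rose by log2 2.61 ± 0.74 (edgeR adjusted p = 0.0076).

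Kcnab2, a cytoplasmic beta subunit of shaker-related channels, had 6.38, 5.75 and 6.46 CPM in the ubiquitous progerin pools, against 0.957, 1.51, 0.586 and 1.21 CPM in the wild-type pools. It had 8.63, 5.81 and 6.07 CPM in the VSMC progerin pools, against 0.782, 1.24, 1.03 and 1.20 CPM in the lamin C-only pools. All 6 progerin pools lay above all 8 control pools, by log2 2.54 ± 0.28 in ubiquitous progerin (edgeR adjusted p = 2.7e-07) and 2.68 ± 0.28 in VSMC progerin (adjusted p = 2.3e-07). Kcnip3, a calcium sensor that binds Kv channels and also represses transcription, had 6.79, 4.97 and 5.20 CPM in the ubiquitous progerin pools, against 19.2, 14.0, 14.9 and 18.1 CPM in the wild-type pools. It had 6.76, 6.25 and 8.01 CPM in the VSMC progerin pools, against 13.6, 13.1, 12.9 and 14.3 CPM in the lamin C-only pools. Every progerin pool was below every control pool, and Kcnip3 fell by 1.55 ± 0.15 on the log2 scale in ubiquitous progerin (edgeR adjusted p = 4.0e-08) and by 0.94 ± 0.15 in VSMC progerin (adjusted p = 3.0e-05).

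Set side by side, 6 genes rose in both models (Kcna3, Kcnab2, Kcnj10, Kcnj15, Kcnk13 and Kcnk3), 16.2% of the 37, where 7.89% of all genes tested did. Of the 6, Kcna3, Kcnj10, Kcnj15 and Kcnk13 had few counts in the controls and could pass the filter through the progerin groups alone. A mean under 1 CPM was found for 18 of the 37 and for 1759 of all 14269 genes. The shares are therefore not matched for level and do not set channel genes apart. Another 3 fell in both, among them Kcnh1 and Kcnip3, a share of 8.11% that was close to the 8.63% of all genes. Opposite calls were made for 7 genes (18.9%), where 10.6% of all genes had them. The VSMC progerin calls of Kcnj2 and Kcnk6 (edgeR adjusted p = 0.049 and 0.034) were each lost in several alternative runs. The share is therefore not read as above that of all genes. Among the 7, Kcne3, Kcnj2, Kcnn4 and Kcnq1 fell in ubiquitous progerin and rose in VSMC progerin, and Kcnk6 and Kcnt2 did the reverse. The comparisons have their own controls and share no library. The test of the difference called 3 genes higher and 11 lower of 37 (37.8%), where 22.4% of all genes were higher and 21.8% lower, 44.2% in all. All 7 genes with opposite calls were among the 14. Changes of opposite sign in the same fit make such a difference large, so this adds no support to those calls. Of the 6 genes that rose in both, none was among the 14, and the macrophage marker sums given above were high in the same pools; their part in these rises was not tested.

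**Figure D5:**
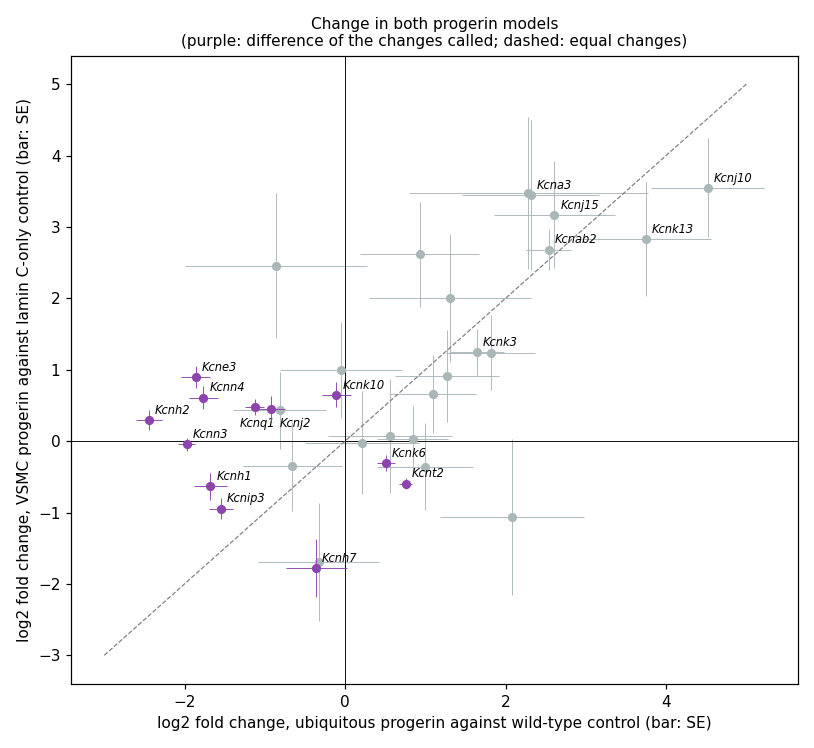
Log2 fold change in ubiquitous progerin against wild-type control (horizontal axis) and in VSMC progerin against lamin C-only control (vertical axis) for 34 of the 37 tested potassium channel genes, with standard errors; Kcng4, which had no count in ubiquitous progerin, is among those left out. Purple genes had a called difference between the models, and Kcnj10, Kcnk13, Kcnab2, Kcnj15, Kcna3 and Kcnk3 lie in the upper right.

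By vascular role, the 3 endothelial channels Kcnj2, Kcnn3 and Kcnn4 fell in ubiquitous progerin, and Kcnj2 and Kcnn4 rose in VSMC progerin. Among endothelial markers in ubiquitous progerin, Tek fell by 1.30 ± 0.06, Cdh5 by 0.62 ± 0.06 and Vwf by 0.51 ± 0.06 on the log2 scale, whereas Erg rose by 0.13 ± 0.06 (edgeR adjusted p = 0.0499) and Pecam1 (0.04 ± 0.05) and Kdr (-0.23 ± 0.14) were not called. The log2 falls of Kcnn3 and Kcnn4 were larger in size than those of the 3 markers that fell, that of Kcnj2 lay between Tek and Cdh5, and the part of endothelial content was not tested. In VSMC progerin Pecam1, Erg and Tek fell by 0.36 ± 0.05, 0.38 ± 0.06 and 0.23 ± 0.06 on the log2 scale. Vwf and Kdr rose there by 0.22 ± 0.05 and 0.75 ± 0.14, and Cdh5 was not called. The part of endothelial content was not tested in this model either. Of 10 listed smooth muscle channels 6 were tested, of which 2 rose and 2 fell in ubiquitous progerin, and 2 rose and 1 fell in VSMC progerin. Among them, Kcnk3 rose in both models, Kcna2 rose in ubiquitous progerin, and Kcnmb1 and Kcnj8 were called in neither. Of the 4 leukocyte channels, Kcna3, Kcnk6 and Kcnk13 rose and Kcnn4 fell in ubiquitous progerin, and Kcna3, Kcnk13 and Kcnn4 rose and Kcnk6 fell in VSMC progerin. Over all genes tested, 54.6% were called in ubiquitous progerin and 42.0% in VSMC progerin. Lists of 3 to 6 tested genes are too short to be set apart from these shares.

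A further 13 tested genes were called in neither progerin model. They were Kcnc2, Kcnd1 and Kcns3 of the voltage-gated class, Kcnn1, the rectifiers Kcnj8 and Kcnj9, Kcnk7, and the auxiliary genes Kcnab1, Kcnab3, Kcnip2, Kcnip4, Kcnmb1 and Kcnrg. The highest group mean among them was 2.60 ± 0.858 CPM, of Kcnip4 in ubiquitous progerin (SD, n = 3), and a p over the threshold at such levels does not show that they were unchanged. Kcnip4 shares exons with a neighbouring gene, so its counts are uncertain.

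Genes that assemble with potassium channels were few: 5 of 9 listed partners were tested. In ubiquitous progerin the large-conductance gamma subunits Lrrc26 and Lrrc55 fell by 4.65 ± 0.97 and 2.33 ± 0.46 on the log2 scale, and Amigo1, a partner of voltage-gated channels, fell by 0.92 ± 0.12, while Dpp10 rose by 1.67 ± 0.67 (edgeR adjusted p = 0.042). In VSMC progerin Amigo1 fell by 0.98 ± 0.12, and the sulfonylurea receptor Abcc9, the partner of Kcnj8, rose by 1.16 ± 0.39 (edgeR adjusted p = 0.023). Amigo1 therefore fell in both models. The mean log2 CPM over the 14 libraries was -0.83 for Lrrc26, 0.46 for Lrrc55, -0.07 for Dpp10 and 0.85 for Abcc9, against 4.65 for Amigo1. The folds of the partners other than Amigo1 therefore rest on low levels.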

How the data were processed

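The count table that the authors deposited holds estimated counts made with RSEM, where a read that fits several genes is split by a model and values can be fractional. The authors also deposited log2 values from limma-voom, used here only as an alternative. Per the submitters' processing notes, trimming, alignment and counting used cutadapt 4.1 and Trim Galore 0.6.10, STAR 2.7.10b, and RSEM 1.2.28 on GRCm38. Strand setting, annotation release and read filters were not given in the sources used here. Per the labels' protocols the libraries were directional and made from polyadenylated RNA.

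The genotype label set each library's group. Counts were rounded and filtered by edgeR's filterByExpr over the 4 groups, with a minimum count of 10 and a minimum total of 15. The minimum count, as CPM at the median library total, had to be reached in as many libraries as the smallest group holds. Counts were then TMM-scaled and fitted together over all 14 libraries in edgeR 4.0.16 (R 4.3.3, robust quasi-likelihood, common dispersion 0.0187). P-values were adjusted by Benjamini-Hochberg across 14269 genes, with 0.05 as the threshold. The SE of a log2 fold change is its size over the root of F. CPM are TMM-scaled, and were divided by GENCODE M21 merged exon length (all 94 genes matched) to compare genes. Classes followed the symbols. Alternatives were RLE size factors, DESeq2 1.42.0, limma 3.58.1 (voom, or trend on the deposited log2 values), no filter, over 1 CPM in 3 libraries, only the groups compared, the pool number as a block, and each pool left out. The steps were tested on simulated counts.

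Values in every library are given for the 6 called genes per direction with the smallest p in each comparison, for the vascular lists and for the 5 genes of highest level; other tested members may be named, and some members are not reported here by name. The members and lists were chosen with earlier results of these data known. Same-numbered pools did not deviate together (correlations from -0.046 to 0.023), and the labels do not state that the numbers pair the pools. Such correlations cannot exclude that same-numbered pools were handled together.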

Additional observations from a re-analysis of the deposited data

Results flagged for a closer look

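In 3 of 74 groups examined (37 genes in 2 control groups), 1 control pool stood apart from the other pools of its group, where chance alone flags about 1 in 20 groups, or 3.7 of the 74. Kcnc2 had 0.276 CPM in lamin C-only pool 4, against 1.15 to 1.31 CPM in the other lamin C-only pools. Kcnk2 had 0.0635 CPM (2 counts) in wild-type pool 4 and 0 in the other wild-type pools. Kcnk6 had 27.7 CPM in wild-type pool 4, against 22.2 to 22.8 CPM in the others.

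For 14 genes the log2 change in ubiquitous progerin differed from that in VSMC progerin by edgeR's quasi-likelihood test of the difference (ubiquitous minus VSMC, Benjamini-Hochberg adjusted). Among them, the differences were -1.93 for Kcnn3, -2.74 for Kcnh2, -2.76 for Kcne3, -1.60 for Kcnq1 and -2.38 for Kcnn4, each with an adjusted p of 3.9e-06 or less. Kcnt2 had a difference of 1.35 and Kcnk6 of 0.82, the reverse direction. Kcnj2 differed by -1.38 and Kcnh1 by -1.04, the last with a fall in both models. The weakest were Kcnk10 at -0.76, Kcnip3 at -0.61, Kcng4 at -6.02 (no count in ubiquitous progerin, so the value depends on the prior count) and Kcnh7 at 1.41, with adjusted p of 0.02, 0.021, 0.023 and 0.042. Kcnh7 was not called when any of 8 single pools was left out, with values from 1.10 to 1.44. Kcng4 was not called without VSMC progerin pool 3 (-5.20), Kcnip3 without VSMC progerin pool 3 or ubiquitous progerin pool 2 (-0.49 and -0.52), and Kcnk10 without ubiquitous progerin pool 2 (-0.66).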

How the results depend on the processing

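All counts of called potassium channel genes stayed within 1.5 times under every alternative run, and no tested direction of a called gene reversed. When single pools were left out, genes called higher and lower numbered 8 to 11 and 10 to 11 in ubiquitous progerin, 11 to 15 and 5 to 7 in VSMC progerin, 0 and 0 between the controls, and 2 to 4 and 9 to 12 for the difference. With the pool number as a replicate block they were 9 and 11, 13 and 6, 0 and 0, and 3 and 11, and the VSMC progerin rise of Kcnj2 was the only call lost (log2 0.43, adjusted p = 0.12). The labels do not state that the numbers pair the pools. The fit of only the groups compared does not apply to the difference, which uses all 4 groups. With no filter on low counts Kcna3 in ubiquitous progerin and Kcnj2 in VSMC progerin were no longer called (adjusted p = 0.076 and 0.082). Depth limits the 57 untested genes and the 18 tested ones with a mean under 1 CPM, whose folds rest on few counts. Intervals cover counting and pool-to-pool error, not errors in dividing reads among overlapping genes. The strand setting was not stated, so antisense overlaps are uncertain.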

Other observations

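Genes of calcium entry and release, which raise the calcium that opens Kcnn3 and Kcnn4, were read beside the channels. Of 22 listed, 17 were tested. In ubiquitous progerin 2 rose and 10 fell, where 26.3% and 28.3% of all genes did, and the median log2 fold change was -0.30 over the list and -0.005 over all genes. The flow-sensitive entry channel Trpv4 had 97.5, 99.9 and 91.7 CPM in the ubiquitous progerin pools, against 178, 174, 154 and 184 CPM in the wild-type pools, and fell by 0.84 ± 0.07 on the log2 scale (edgeR adjusted p = 6.0e-09). The stretch-activated Piezo1 fell by 0.40 ± 0.06, the store-operated channel Orai1 by 0.54 ± 0.09, its sensor Stim1 by 0.53 ± 0.06, and the release channels Itpr1, Itpr2 and Itpr3 by 0.30 ± 0.07, 0.55 ± 0.07 and 0.23 ± 0.07.

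In VSMC progerin 7 of the 17 rose and 5 fell, where 19.0% and 23.0% of all genes did, and the median log2 fold change was 0.19 over the list and -0.03 over all genes. Trpv4 had 198, 194 and 174 CPM in the VSMC progerin pools, against 171.8, 171.8, 169.8 and 149.7 CPM in the lamin C-only pools, and rose by 0.19 ± 0.07 on the log2 scale (edgeR adjusted p = 0.035). Piezo1 rose by 0.29 ± 0.06, Orai1 by 0.24 ± 0.08 and Itpr1 by 0.27 ± 0.07, while Stim1 fell by 0.69 ± 0.06 and Itpr3 by 0.53 ± 0.07. The voltage-gated calcium channel Cacna1d rose in both models, by log2 6.68 ± 0.87 in ubiquitous progerin and 2.65 ± 0.66 in VSMC progerin, and no control pool exceeded 0.674 CPM. It had 0, 2, 2 and 0 counts in the wild-type libraries and 15, 9, 0 and 22 in the lamin C-only libraries. The size of the first fold therefore rests on few control counts, and the controls were unequal. The difference between the models was 4.03 ± 1.13 (edgeR adjusted p = 0.0069).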
